A study of Limonium bicolor with 5 samples.

Results

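Leaves of the salt-secreting plant Limonium bicolor were profiled at 5 stages of development, and 43 of the 18327 genes in the deposited table were taken as enzymes of starch and sucrose metabolism. They were found by the text of the annotation alone: the description of the paired Arabidopsis locus had to contain 1 of 11 terms, such as amylase, starch, isoamylase or sucrose synthase. No measured value entered that rule, but the set was proposed with the values of all 5 stages known, so all differences are given as descriptions and none is tested. The 43 genes were 2 subunits of ADP-glucose pyrophosphorylase, 4 starch synthases, 3 branching enzymes, 3 debranching enzymes, 3 alpha-amylases, 9 beta-amylases, 3 enzymes that move glucan or maltose units, 6 sucrose synthases, 3 sucrose phosphate synthases, 1 fructofuranosidase and 6 proteins described as glycogenin-like. All 43 reached 1 RPM (reads per unit of library size, not divided by gene length) in at least 1 stage, 41 reached 5 RPM and 37 reached 20 RPM.

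Each sample was poly(A) RNA from pooled first true leaves of plants grown in tissue culture, and the labels give no genotype or treatment beside the stage. Stage A was the undifferentiated leaf (about 5000 leaves pooled), stage B the leaf with salt glands (4000), stage C the leaf with stomata (2000), stage D the leaf whose epidermis had differentiated (1000) and stage E the mature leaf (1000), by the labels. The labels speak of a pair of sequencing lanes per stage, called biological replicates there, but the table has 1 column per stage, so no spread between replicates is known and no p-value can be given. Pooling also means that fewer cells of a type and less RNA per cell cannot be told apart. The reads behind a stage numbered 5939374 in stage A and between 12945184 and 16556653 in the others, and 3 reads, the floor used here, were 0.505 RPM in stage A and 0.181 to 0.232 RPM in the others. Since RPM ignores gene length, levels are compared between stages of 1 gene, and the share of a class that comes from 1 gene is a share of reads that also depends on gene length. Intervals beside folds are exact 95% intervals that cover only the error of counting reads. Reads copied by PCR are not separate molecules, so even that error may be larger than the intervals show.

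Starch is built in plastids. ADP-glucose pyrophosphorylase makes the sugar donor, starch synthases lengthen the chains, branching enzymes add branch points and isoamylases trim them into a form that packs. In leaves, starch made by day is broken down by night: dikinases phosphorylate the granule, phosphatases and debranching enzymes open it, and beta-amylases release maltose, which the cytosolic enzyme DPE2 then converts. Sucrose, the sugar that most plants move through the phloem, is made by sucrose phosphate synthase and sucrose phosphatase and is split by sucrose synthase or invertase.

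The labelled tissue was checked against marker genes. The 4 markers of photosynthetic cells summed to 546, 1588, 24703, 27859 and 8287 RPM over stages A to E, and the 3 markers of dividing cells to 3878, 4448, 506, 263 and 89.8 RPM. Single genes dominated both sums: RCA gave 25701 RPM in stage D and 7656 RPM in stage E, and HTA6 3788 RPM in stage B. From stage C to stage D, RCA rose from 9581 RPM while LHCB1.2 fell from 13966 to 1068 RPM. RBCS1A stood at 962 and 849.7 RPM in these stages, and RBCS3B at 194 and 240.0 RPM. The 3 phloem markers summed to 21.2, 37.5, 111, 267 and 285 RPM, and the 4 guard cell markers to 81.3, 55.4, 63.3, 86.9 and 169 RPM, so both were present before and after the stage named for stomata. The 3 trichome and root hair markers summed to 205, 88.2, 27.6, 27.9 and 16.1 RPM, and the 2 vessel markers to 47.3, 72.8, 116, 166 and 72.8 RPM. The 2 shoot meristem markers summed to 14.8 RPM in stage A and to at most 1.39 RPM later. Stage C stood apart in another way: loci paired with Arabidopsis chromosome 1 took 40.4% of its reads, against 24.4% to 28.3% in the other stages. Stage D is therefore set against stage B as well as against stage C.

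A gene was called higher or lower when log2(RPM + 1) differed by 1 or more and the higher stage reached 5 RPM. The starch and sucrose genes stood out from the background in the comparison of the mature leaf with stage D: 12 were higher in stage E and 6 were lower, or 27.9% and 14.0% of the 43, against 13.1% and 6.65% of the 18165 genes that reached 1 RPM. In either direction these were 41.9% of the 43, against 19.7% of all genes. With median-of-ratios scaling there were 9 higher and 7 lower. The shares of all genes called were not recomputed after scaling, here or in the other comparisons. Scaled counts therefore have no background beside them, and whether the excess holds after scaling is not shown. Low genes are rarely called, so the share was also read among genes that averaged 20 RPM: 45.7% of the 35 starch and sucrose genes there were called in either direction, against 23.8% of all 8767 such genes. In stage E against stage A, 13 were higher and 3 lower (30.2% and 6.98%, against 18.6% and 13.7% of all genes). In stage D against stage B, 12 were higher and 5 lower (27.9% and 11.6%, against 10.5% and 19.5%), or 39.5% in either direction against 30.0%. Among genes that averaged 20 RPM, the share called in either direction lay near the background in both: 42.9% against 39.3% of all genes in stage E against stage A (all genes of the table: 32.3%), and 40.0% against 39.4% in stage D against stage B. The split by direction differed from the background in both: 37.1% were higher and 5.71% lower in stage E against stage A (all such genes 21.2% and 18.1%), and 25.7% higher and 14.3% lower in stage D against stage B (12.8% and 26.5%).

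The other comparisons lay near or under the background. In stage C against stage B, 9 were higher and 8 lower, or 39.5% in either direction against 38.3% of all genes (higher 15.3%, lower 23.0%); scaling changed this to 11 and 3. In stage D against stage C, 10 were higher and 7 lower, or 39.5% against 37.0% (higher 17.4%, lower 19.5%). In stage B against stage A, 1 was higher and 1 lower, or 4.65% against 10.6% (higher 7.47%, lower 3.10%), and scaling gave 1 and 2. Among genes that averaged 20 RPM, 37.1% were called in stage C against stage B (all such genes: 43.5%), 37.1% in stage D against stage C (41.0%) and 2.86% in stage B against stage A (12.6%).

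The median log2 difference of the 43 genes was 0.77 in stage E against stage A, where the median of all genes was 0.09, and 0.04 in stage D against stage B, where the median of all genes was -0.29. Between neighbouring stages it was -0.03 in stage B against stage A (all genes 0.10), -0.12 in stage C against stage B (-0.24), 0.15 in stage D against stage C (-0.06) and 0.19 in stage E against stage D (0.28). Scaling sets the median of all genes to 0.02 in stage C against stage B and to 0.00 in stage E against stage D, and with it the medians of the 43 genes to 0.18 and -0.14.

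**Figure D1:**
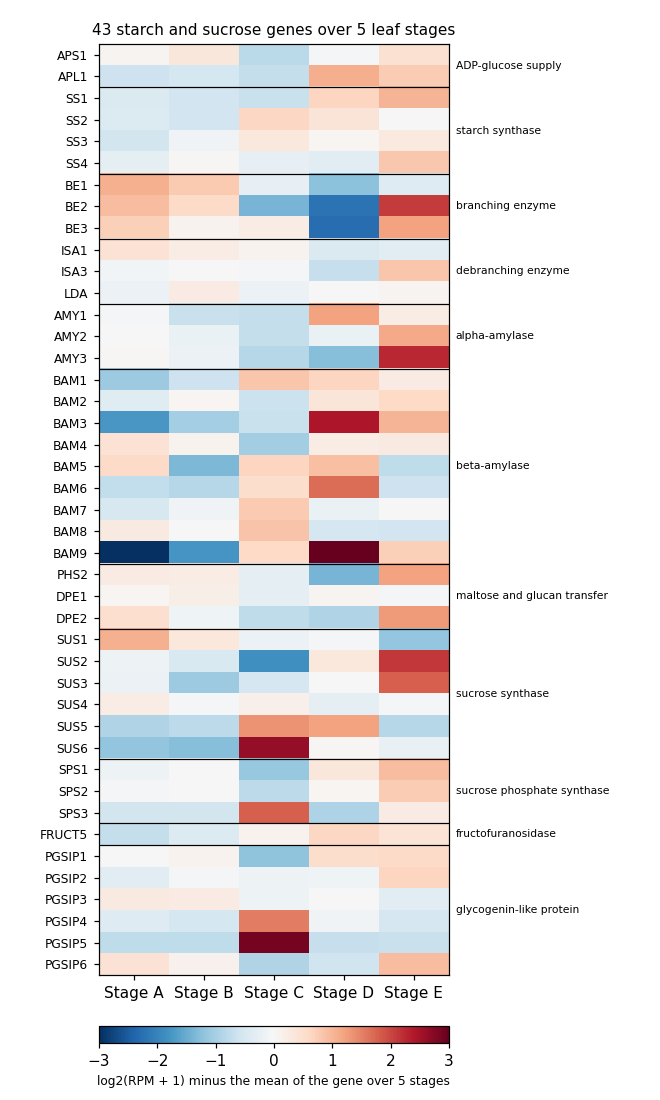
Each row is 1 of the 43 genes, grouped by enzyme class, and each column is 1 stage (1 library each); colour is log2(RPM + 1) minus the mean of that gene over the 5 stages, and the scale ends at 3 in both directions. BE2, BE3 and AMY3 are deep blue or blue in stage D and red in stage E, BAM3, BAM6 and BAM9 are reddest in stage D, and SUS6, SPS3 and PGSIP5 are reddest in stage C.

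Starch synthesis genes differed in their course by enzyme class. The large subunit gene APL1 (AT5G19220) of ADP-glucose pyrophosphorylase stood at 251, 269, 236, 834 and 664 RPM over stages A to E. Stages D and E were thus both well above the earlier ones, by 3.54-fold (95% counting interval 3.41 to 3.67) in stage D against stage C. The small subunit gene APS1 (AT5G48300), needed for a working enzyme in Arabidopsis, stood at 284, 341, 153, 258 and 367 RPM in stages A to E and was called in stage C against stage B alone, as 2.23-fold lower (2.12 to 2.35), a call lost after scaling.

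Among the starch synthases, SS1 (AT5G24300), which extends short chains, stood at 62.3, 56.7, 52.4, 133 and 173 RPM. It was high in the last 2 stages, 2.53-fold higher in stage D than in stage C (2.33 to 2.75). SS2 (AT3G01180) was highest in stage C, at 42.6, 38.0, 87.8, 74.7 and 56.5 RPM. SS3 (AT1G11720) stood at 182, 251, 333, 279 and 331 RPM and was called in none of the 6 comparisons. SS4 (AT4G18240), known in Arabidopsis for starting granules, stood near 50 RPM until the last stage, at 48.5, 60.5, 49.9, 47.7 and 104 RPM. Its rise of 2.17-fold in stage E against stage D (1.99 to 2.38) was lost after scaling, at 1.69-fold. The sum of the 4 synthases was 335, 407, 523, 534 and 664 RPM over stages A to E.

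Branching enzymes had the deepest trough of any class. BE2 (AT5G03650, described as starch branching enzyme 2.2) stood at 263, 205, 51.7, 28.7 and 595 RPM over stages A to E. BE3 (AT2G36390, branching enzyme 2.1) stood at 289.6, 189, 206, 35.3 and 406 RPM. Both genes were thus lowest in stage D and highest in stage E. BE2 was 7.17-fold lower in stage D than in stage B (6.51 to 7.91) and 20.8-fold higher in stage E than in stage D (18.9 to 22.8), the largest rise of the 43 genes in that comparison. BE3 was 5.36-fold lower (4.90 to 5.86) and then 11.5-fold higher (10.6 to 12.6). The third locus, BE1 (AT3G20440), is described only as an alpha-amylase family protein, and its part in starch is less settled. It stood at 208, 172, 83.4, 41.8 and 75.8 RPM, 2.75-fold lower in stage E than in stage A (2.52 to 2.99). It too was lowest in stage D, and stage E was 1.81-fold higher than stage D, under the call threshold. The class summed to 1077 RPM in stage E and 106 RPM in stage D, a 10.2-fold difference (9.69 to 10.7), or 7.90-fold after scaling.

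Debranching enzymes varied less. ISA1 (AT2G39930), which trims growing starch, stood at 235, 202, 186, 129 and 139 RPM, and LDA (AT5G04360), the limit dextrinase, at 45.1, 61.0, 45.1, 51.2 and 54.3 RPM. Neither was called in any comparison. ISA3 (AT4G09020), which debranches starch during its breakdown, stood at 116, 124, 118, 76.0 and 219 RPM and was 2.88-fold higher in stage E than in stage D (2.69 to 3.08).

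The amylases split between stages D and E. AMY3 (AT1G69830), the plastid alpha-amylase, stood at 138, 119, 74.1, 55.3 and 648 RPM over stages A to E. It was 11.7-fold higher in stage E than in stage D (10.9 to 12.6) and held 91.9% of the alpha-amylase reads of the mature leaf. AMY2 (AT1G76130) stood at 24.1, 20.8, 14.3, 20.8 and 53.8 RPM, with stage E again highest. AMY1 (AT4G25000), a secreted form in Arabidopsis, peaked at 7.76 RPM in stage D and stood between 1.33 and 3.48 RPM elsewhere.

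Beta-amylases, in contrast, were highest as a class in stage D. The 9 genes summed to 219, 241, 372, 1146 and 428 RPM over stages A to E, which made stage D 4.75-fold higher than stage B (4.59 to 4.91) and stage E 2.68-fold lower than stage D (2.60 to 2.76). BAM9 (AT5G18670, described as beta-amylase 3), a form without catalytic activity in Arabidopsis, stood at 2.53, 9.30, 52.4, 487 and 56.9 RPM. It was higher at each step up to stage D, 52.3-fold above stage B there (44.6 to 61.8), and gave 42.5% of the reads of the class in stage D. The single gene called higher in stage B against stage A was BAM9, at 3.68-fold (2.16 to 6.74).

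BAM3 (AT4G17090, described as chloroplast beta-amylase), the main maltose-releasing form of Arabidopsis leaves, stood at 12.8, 21.6, 27.9, 246 and 92.9 RPM. Its jump came between stages C and D, at 8.83-fold (7.96 to 9.81), and stage E was 2.65-fold lower than stage D (2.48 to 2.83). BAM6 (AT2G32290) stood at 29.6, 27.4, 72.9, 164 and 32.4 RPM, so that stage E had returned to the level of stages A and B. BAM5 (AT4G15210), which lies outside plastids in Arabidopsis, stood at 12.8, 2.66, 13.6, 16.4 and 4.48 RPM and was the single gene called lower in stage B against stage A, at 4.81-fold (3.28 to 7.15).

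The other beta-amylases were not highest in stage D by RPM, although BAM2 and BAM4 were after scaling. BAM1 (AT3G23920), a plastid form, stood at 17.3, 24.6, 69.4, 60.0 and 45.3 RPM, highest in stage C. BAM2 (AT4G00490) stood at 51.5, 68.9, 42.3, 85.5 and 102 RPM and was called nowhere. BAM4 (AT5G55700), a non-catalytic plastid protein in Arabidopsis, stood at 61.8, 49.1, 21.8, 53.4 and 55.5 RPM, low in stage C alone. It was called higher in stage D than in stage C, at 2.45-fold (2.15 to 2.80). BAM7 (AT2G45880) and BAM8 (AT5G45300) carry a DNA-binding domain in Arabidopsis and act in the nucleus. Both were highest in stage C: BAM7 stood at 25.6, 33.9, 63.9, 31.3 and 36.4 RPM, and BAM8 stayed between 2.39 and 8.12 RPM.

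The enzymes that take up the products of breakdown rose in the mature leaf on the cytosolic side. DPE2 (AT2G40840), which uses maltose in the cytosol, stood at 597, 383, 246, 225 and 1021 RPM over stages A to E, 4.54-fold higher in stage E than in stage D (4.38 to 4.71). PHS2 (AT3G46970), the cytosolic glucan phosphorylase, stood at 138, 135, 96.3, 43.4 and 267 RPM, 6.14-fold higher in stage E than in stage D (5.66 to 6.67). DPE1 (AT5G64860), the plastid counterpart that works on maltotriose, stayed between 26.5 and 36.3 RPM over all 5 stages. Its highest value was 1.37 times its lowest, and it was called in no comparison.

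**Figure D2:**
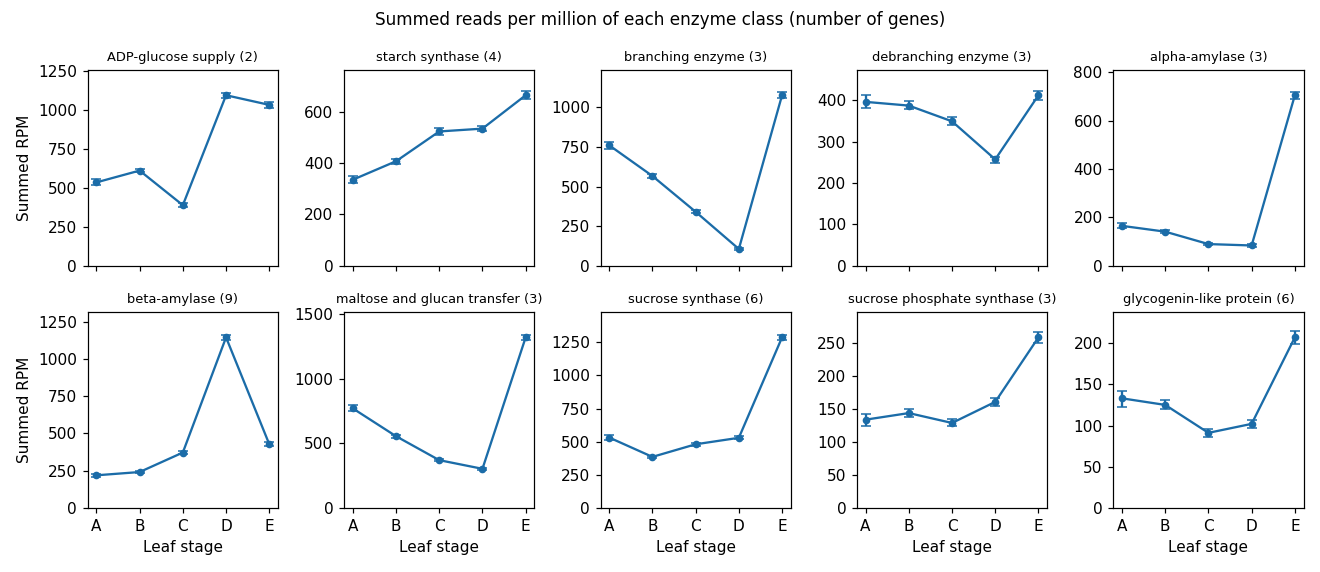
Points are the summed RPM of each enzyme class in stages A to E (1 library each), bars are exact 95% Poisson intervals for counting error, and each panel has its own scale from 0. Branching enzymes sank to 106 RPM in stage D and stood at 1077 RPM in stage E, while beta-amylases peaked at 1146 RPM in stage D and alpha-amylases at 705 RPM in stage E.

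Sucrose synthases differed in direction over development. SUS1 (AT5G20830) stood at 119, 70.4, 49.8, 55.3 and 24.5 RPM over stages A to E, 4.85-fold lower in stage E than in stage A (4.25 to 5.56). SUS2 (AT5G49190) stood at 154, 124, 46.5, 212 and 747 RPM, 4.86-fold higher in stage E than in stage A (4.54 to 5.21). SUS3 (AT4G02280) stood at 94.1, 49.3, 74.7, 105 and 368 RPM, 3.91-fold higher over the same span (3.58 to 4.28). SUS1 was thus highest in the youngest leaves, and SUS2 and SUS3 in the oldest. SUS2 alone gave 58.0% of the sucrose synthase reads of stage E. SUS4 (AT3G43190) stayed between 108 and 150.2 RPM and was called nowhere. These loci are close relatives, and reads could have been split or moved between them by the authors' counting, so single members are uncertain.

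Both members known from phloem sieve elements of Arabidopsis were highest in stage C. SUS5 (AT5G37180) stood at 5.22, 5.74, 28.3, 25.6 and 5.41 RPM, and SUS6 (AT1G73370) at 8.76, 8.21, 138, 21.9 and 17.9 RPM. For SUS5, stage D was 0.903 times stage C (0.786 to 1.04), so these 2 stages lay within the error of counting. Of the phloem markers, SEOR1 was highest in stage D, at 7.91, 22.5, 52.6, 208 and 122 RPM, while SUC2, at 10.6, 13.6, 55.2, 51.2 and 147 RPM, and APL, at no more than 16.0 RPM, were highest in stage E. The part of phloem cells in these values was not tested.

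Of the 3 sucrose phosphate synthase genes taken by the rule, SPS1 and SPS2 were highest in the mature leaf and SPS3 in stage C. SPS1 (AT5G20280, described as 1F) stood at 62.3, 70.0, 30.9, 87.7 and 132 RPM, 2.11-fold higher in stage E than in stage A (1.89 to 2.37; 1.94-fold and no longer called after scaling). SPS2 (AT5G11110, 2F) stood at 59.9, 62.6, 35.9, 64.3 and 106 RPM and was called nowhere. SPS3 (AT1G04920, 3F) stood near 10 RPM in stages A, B and D, at 11.4, 11.4 and 8.55 RPM, and at 62.6 RPM in stage C and 20.5 RPM in stage E. In stage E the 3 genes summed to 259 RPM, against 134 RPM in stage A, and the 6 sucrose synthases to 1287 RPM, against 531 RPM.

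The fructofuranosidase (AT1G55120), a cell wall enzyme of the acid invertase and fructan hydrolase family, stood at 11.8, 14.9, 21.5, 31.4 and 26.8 RPM. It was 2.27-fold higher in stage E than in stage A (1.75 to 2.98).

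The 6 glycogenin-like genes were taken by the word starch in their description, although in Arabidopsis most of these proteins are now known to decorate xylan in the cell wall, and PGSIP6 acts on sphingolipids. PGSIP6 (AT5G18480) stood at 82.0, 66.4, 31.8, 39.3 and 116 RPM, PGSIP2 (AT1G77130) at 33.8, 41.4, 37.8, 38.3 and 66.4 RPM, and PGSIP1 (AT3G18660) at 15.5, 16.6, 6.09, 22.8 and 23.6 RPM. All 3 were highest in stage E by RPM. PGSIP1 was only 1.04-fold above stage D there (0.889 to 1.21), and after scaling it was highest in stage D. PGSIP3 (AT4G33330) never passed 1.01 RPM and PGSIP4 (AT1G54940) never passed 3.43 RPM. PGSIP5 (AT1G08990) had 0 reads in stages A and B, 11.5 RPM in stage C, and 1 read each in stages D and E. The class supplied 1 of the genes called higher in stage E against stage D and none of those called lower.

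**Figure D3:**
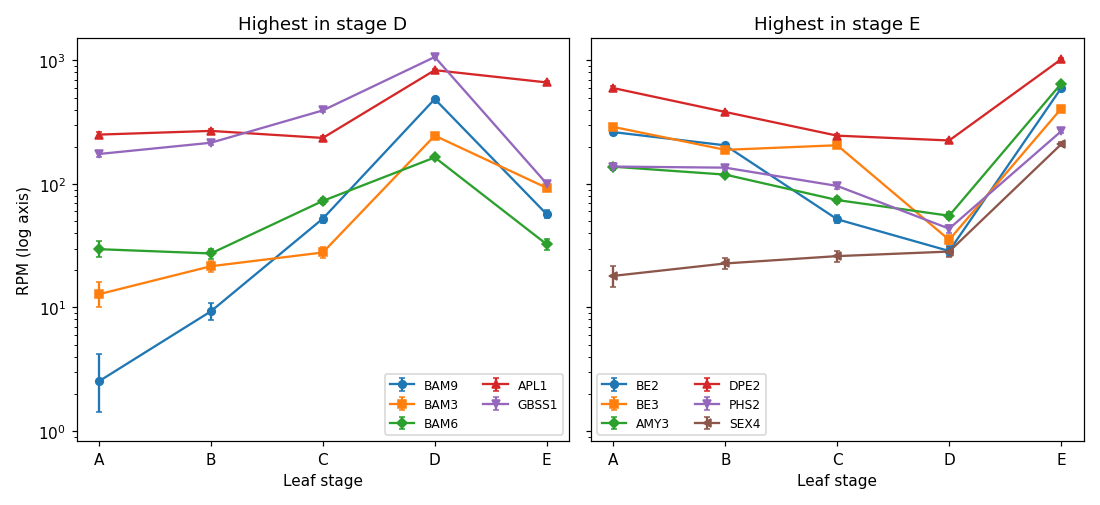
Lines join the RPM of single genes over stages A to E on a log axis (1 library per stage; bars are exact 95% Poisson intervals); the left panel shows genes highest in stage D and the right panel genes highest in stage E. GBSS1 and SEX4 are not among the 43 genes. BAM9 had 487 RPM in stage D, against 2.53 RPM at its lowest, in stage A, whereas BE2 had 595 RPM in stage E, against 28.7 RPM in stage D.

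Most of the genes peaked in stage D or stage E. Stage E held the highest value of 18 (43.9%) of the 41 genes that reached 5 RPM, against 25.9% of the 15603 genes of the table that reached it. Another 9 peaked in stage C (23.8% of all genes did), 7 in stage D (17.1%, against 11.2% of all genes), 5 in stage A (12.2%, against 21.5%) and 2 in stage B (4.88%, against 17.5%). After scaling, 16 peaked in stage E, where 19.5% of all genes did, and 12 in stage D, where 17.6% of all genes did. Highest in stage E and at the same time lowest in stage D were 7 genes, or 17.1%, against 3.19% of all genes: AMY3, BE2, BE3, DPE2, PHS2, ISA3 and SS4. Scaling left 6 of them, all but SS4, against 1.55% of all genes. These 7 include enzymes of synthesis (BE2, BE3, SS4) and of breakdown or use (AMY3, ISA3, DPE2, PHS2).

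The 6 genes called lower in stage E than in stage D were BAM9, by 8.56-fold (7.94 to 9.25), BAM6, by 5.05-fold (4.56 to 5.62), SUS5, by 4.73-fold (3.67 to 6.19), BAM5, BAM3 and SUS1. Thus 4 of 9 beta-amylases were lower and 0 were higher, while among the other 34 genes 12 were higher and 2 lower; of all genes 13.1% were higher and 6.65% lower. The largest rises after BE2, AMY3 and BE3 were those of PHS2, DPE2, SUS2 (3.52-fold, 3.39 to 3.66) and SUS3 (3.49-fold, 3.30 to 3.69). AMY2, SPS3 and SS4 were also called, and lost their calls after scaling.

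**Figure D4:**
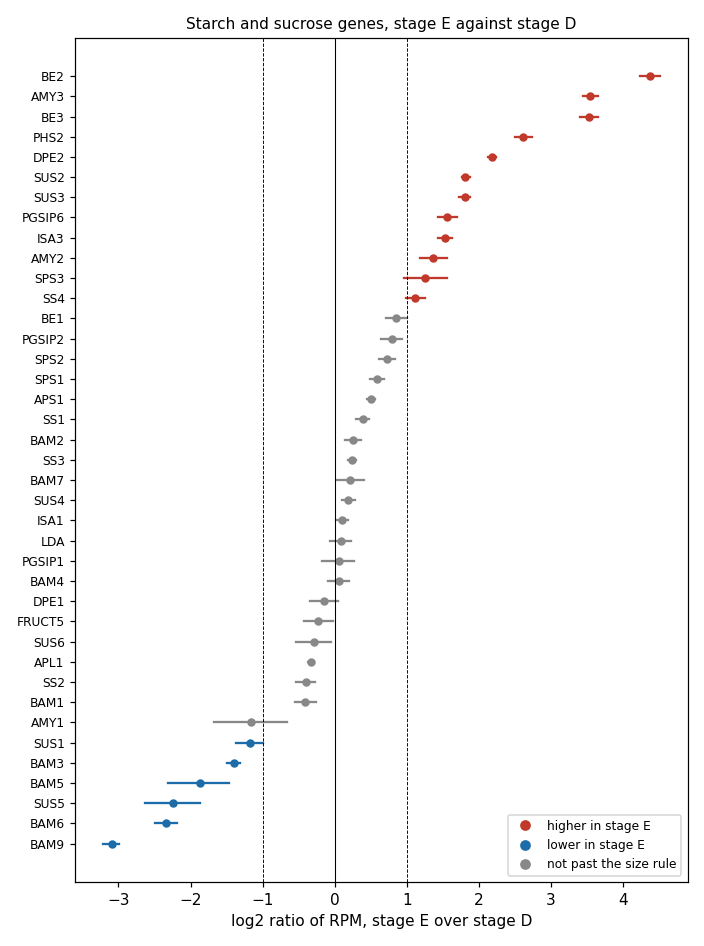
Points are the log2 ratio of RPM in stage E over stage D for the 39 starch and sucrose genes that reached 5 RPM in either stage, bars are exact 95% counting intervals, and dashed lines mark 2-fold. AMY1 lies past 2-fold in RPM but not on the log2(RPM + 1) scale that the calls use. BE2, AMY3 and BE3 lie farthest to the right and BAM9, BAM6 and SUS5 farthest to the left.

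Core genes of the circadian clock, looked up after the values had been seen, also differed between these 2 libraries. LHY stood at 1.08 RPM in stage E and 137 RPM in stage D, and CCA1 at 0.463 and 28.7 RPM. TOC1 stood at 29.2 RPM in stage E and 0.244 RPM in stage D, and GI at 107 and 21.3 RPM. PRR5 (42.4 and 29.0 RPM) and PRR9 (18.1 and 24.9 RPM) differed less. LHY and CCA1 are expressed around dawn in Arabidopsis, and TOC1 and GI late in the day. The time of day of sampling is not given in the sources used here, and its part in the differences between stages D and E was not tested. The sum of the 4 photosynthetic markers also differed, at 8287 RPM in stage E and 27859 RPM in stage D, and that of the 3 dividing cell markers, at 89.8 and 263 RPM. The part of cell makeup was not tested either.

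The calls that involve stage C are given by the chromosome of the paired locus, since the whole library differed by chromosome. In stage C against stage B, 3 of the 9 genes paired with chromosome 1 were higher (SUS6, SPS3 and PGSIP5) and 0 lower, against 26.4% and 12.3% of all chromosome 1 loci. Of the 15 genes paired with chromosome 5, 2 were higher and 6 lower, against 7.17% and 35.2% of all chromosome 5 loci. On chromosome 2, 1 of 5 was higher and 0 lower (all loci 17.1% and 16.0%), on chromosome 3, 2 of 6 were higher and 2 lower (12.7% and 24.5%), and on chromosome 4, 1 of 8 was higher and 0 lower (10.2% and 29.1%). The shares called on chromosomes 1 and 5, 33.3% higher and 40.0% lower, thus lay near those of all loci there. Among the called genes with reads in both stages, SUS6 had the largest rise, at 16.8-fold (14.1 to 20.1), followed by BAM9 at 5.63-fold (4.73 to 6.74), SPS3 at 5.48-fold (4.68 to 6.45) and BAM5 at 5.14-fold (3.69 to 7.30). BE2 was the largest fall, at 3.97-fold (3.67 to 4.30), followed by PGSIP1 and SUS2.

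In stage D against stage C the direction by chromosome turned round. Of the chromosome 1 genes 0 were higher and 3 lower, against 9.41% and 31.2% of all loci there, and of the chromosome 5 genes 6 were higher and 1 lower, against 25.6% and 10.2%. On chromosome 2, 1 was higher and 2 lower (all loci 12.6% and 22.4%), on chromosome 3, 1 and 1 (17.7% and 17.9%), and on chromosome 4, 2 and 0 (23.5% and 13.0%). The genes lower in stage D were the same chromosome 1 genes, SPS3 by 7.32-fold (6.12 to 8.81), SUS6 by 6.28-fold (5.61 to 7.05) and PGSIP5 by 188-fold (33.3 to 7466, from 1 read in stage D), with BE3, BAM8, PHS2 and BAM7. The largest rises were those of BAM9, at 9.30-fold, BAM3, AMY1 at 5.83-fold, SUS2 at 4.55-fold (4.19 to 4.96), PGSIP1 at 3.74-fold (2.96 to 4.78) and APL1. A change with stage and the chromosome pattern of this library cannot be told apart. Without chromosome 1 genes, stage C against stage B had 6 higher and 8 lower, and stage D against stage C 10 higher and 4 lower.

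**Figure D5:**
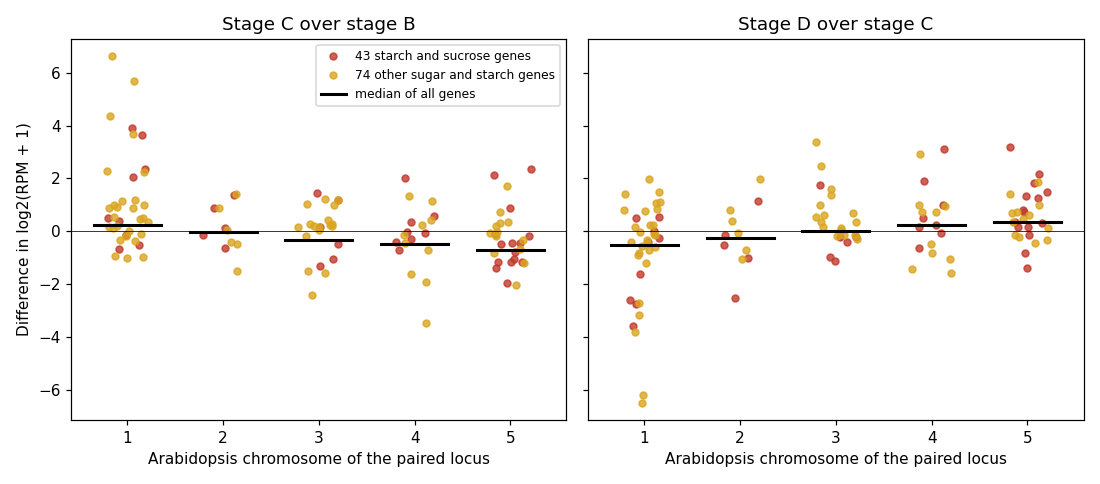
Points are differences in log2(RPM + 1) of the 43 starch and sucrose genes (red) and 74 other sugar and starch genes (yellow) by the Arabidopsis chromosome of the paired locus, for stage C over stage B (left) and stage D over stage C (right); black bars are medians of all genes. The medians of all genes run between 0.23 on chromosome 1 and -0.69 on chromosome 5 on the left, and between -0.50 and 0.36 on the right.

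Comparing stage D directly with stage B leaves stage C out. There the beta-amylases BAM9, BAM3 (11.4-fold, 10.2 to 12.8), BAM5 (6.18-fold, 4.48 to 8.71), BAM6 (5.99-fold, 5.42 to 6.64) and BAM1 (2.44-fold, 2.17 to 2.75) were higher, 5 of 9, and 0 were lower, where 10.5% of all genes were higher and 19.5% lower. Also higher were SUS5, SUS6, SUS3, APL1, SS1, AMY1 and the fructofuranosidase. All 3 branching enzymes were lower, together with PHS2 (3.12-fold, 2.87 to 3.40) and AMY3 (2.15-fold, 1.99 to 2.33; 0.611 times stage B and not called after scaling). Over the same step the photosynthetic markers summed to 27859 RPM in stage D and 1588 RPM in stage B, and the dividing cell markers to 263 and 4448 RPM. Of the clock genes, LHY was 5.01-fold and CCA1 5.10-fold higher in stage D than in stage B, and TOC1 was 35.3-fold (13.5 to 131) and GI 3.37-fold lower. PRR5, at 0.933 times stage B, and PRR9, at 1.41 times stage B, were not called. The part of cell makeup and of time of day in these differences was not tested.

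Across the whole span, stage E against stage A, the largest rises were those of BAM9 (22.5-fold, 13.6 to 40.4), BAM3 (7.26-fold, 5.76 to 9.28), SUS2, AMY3 (4.70-fold, 4.37 to 5.05) and SUS3. SS1 (2.78-fold), APL1 (2.65-fold), BAM1 (2.61-fold), the fructofuranosidase, BE2 (2.26-fold), AMY2 (2.24-fold), SS4 (2.14-fold) and SPS1 were the other 8 called higher, and scaling removed the calls of SS4 and SPS1. SUS1, BAM5 (2.86-fold) and BE1 were the 3 called lower. BAM9, BAM3, BAM1, SUS3, APL1, SS1 and the fructofuranosidase were thus higher both in stage D against stage B and in stage E against stage A, and stage C enters neither of these comparisons. The share of all genes that were higher in both was not computed, so this overlap has no background beside it. BE2 and AMY3 were lower in stage D than in stage B and higher in stage E than in stage A. Between these stages the photosynthetic markers summed to 8287 RPM in stage E and 546 RPM in stage A, and the dividing cell markers to 89.8 and 3878 RPM. LHY was 20.2-fold (11.6 to 38.0) and CCA1 15.6-fold (6.62 to 44.9) lower in stage E than in stage A, and TOC1 was 2.59-fold higher (1.99 to 3.41). The other clock genes, GI (1.13-fold), PRR5 (1.58-fold) and PRR9 (1.17-fold), were not called. The part of cell makeup and of time of day was again not tested.

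A further 74 loci of the same pathways, listed by their Arabidopsis names, lay outside the description rule. The authors' wording passes over some core enzymes: the granule-bound synthase, the plastid phosphorylase and the dikinase GWD1 are described by domain or family names. In stage E against stage A, 20 of the 74 (27.0%) were higher and 0 lower, against 18.6% and 13.7% of all genes, with a median log2 difference of 0.32. In stage E against stage D, 6 (8.11%) were higher and 6 (8.11%) lower, against 13.1% and 6.65% of all genes, with a median of 0.06. In either direction these were 16.2%, against 19.7% of all genes, so the excess seen among the 43 was not seen here. In stage D against stage B, 18 (24.3%) were higher and 4 (5.41%) lower, against 10.5% and 19.5%. In stage B against stage A, 3 (4.05%) were higher, against 7.47%, and 0 lower: VI2, MEX1 and cyFBP.

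GBSS1 (AT1G32900), which makes amylose and is described as a UDP-glycosyltransferase, stood at 175, 216, 394, 1066 and 101 RPM over stages A to E, 10.6-fold lower in stage E than in stage D. Like BAM3 and BAM9 it was highest in stage D, and with it the 5 starch synthases summed to 765 RPM in stage E and 1601 RPM in stage D. Without it the sum was 1.24-fold higher in stage E than in stage D, or 0.964 times stage D after scaling. SEX4 (AT3G52180), the phosphatase that prepares granules for breakdown, stood at 18.0, 22.7, 26.0, 28.3 and 209 RPM, 7.39-fold higher in stage E than in stage D. Like AMY3 and DPE2 it was highest in the mature leaf. MEX1 (AT5G17520), the maltose exporter of plastids, stood at 20.4, 46.9, 45.0, 121 and 40.6 RPM, highest in stage D.

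The dikinases that start breakdown, GWD1 (AT1G10760) and PWD (AT5G26570), stood at 195, 162, 204, 240.1 and 275 RPM and at 123, 193, 243, 395 and 355 RPM. PWD was called higher in stage E against stage A (2.88-fold) and in stage D against stage B (2.05-fold), and GWD1 was called nowhere. PHS1 (AT3G29320), the plastid phosphorylase, stayed between 318 and 500.1 RPM and was called nowhere.

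Of the large subunits of ADP-glucose pyrophosphorylase that the rule missed, APL3 was lowest in stage C, at 271, 206, 54.0, 108 and 227 RPM over stages A to E, and APL4 in stage D, at 201, 149, 111, 52.7 and 115 RPM. APL2 was instead highest in stage C, at 223, 207, 395, 302 and 277 RPM. APS2 (AT1G05610), a second small subunit locus, stood at 109 RPM in stage C and at no more than 0.244 RPM in any other stage. It is a chromosome 1 locus, as are FRK3 (273 RPM in stage C, at most 4.71 RPM elsewhere), FRK2, HXK3 and INVD, which showed the same single peak in stage C. Such peaks were not confined to chromosome 1. SPS4 (AT4G10120), a sucrose phosphate synthase locus of chromosome 4, stood at 8.08, 7.25, 19.9, 6.05 and 9.27 RPM over stages A to E. HKL3, also of chromosome 4, had 3.36 RPM in stage C and at most 1.18 RPM elsewhere.

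The fructose bisphosphatase genes, cytosolic and plastid, and the triose phosphate exporter were higher in stage E than in stage A. Cytosolic fructose bisphosphatase, cyFBP (AT1G43670), stood at 5.89, 16.0, 351, 416 and 267 RPM, 45.4-fold higher in stage E than in stage A. It is also a chromosome 1 locus, but unlike those above it stayed high in stages D and E. For its stage C value, a change with stage and the chromosome pattern cannot be told apart. The plastid form, cpFBP (AT3G54050), stood at 459, 783, 1547, 4711 and 3461 RPM, and TPT (AT5G46110), the triose phosphate exporter of plastids, at 188, 306, 1001, 1550.2 and 942 RPM. The 4 sucrose phosphatases, which finish sucrose synthesis, summed to 244, 233, 173, 292 and 365 RPM, with none called in stage E against stage A. Of 8 genes listed as trehalose phosphate synthases, 6 were higher in stage E than in stage A and 0 lower (18.6% and 13.7% of all genes). Among the 6 were TPS11 (4.25-fold), TPS8 (3.79-fold) and TPS1 (3.44-fold). Whether each of these genes encodes an active synthase was not tested.

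Of the 5 hexose phosphate enzymes, 3 were called higher in stage E against stage A and 0 lower (18.6% and 13.7% of all genes). The 3 were cPGI (2.72-fold), PGM1 (2.43-fold) and PGM3 (2.35-fold). PGI1 and PGM2 were not called: over this span PGI1 went from 71.7 down to 52.1 RPM, and PGM2 from 132 up to 164 RPM. Single genes of other groups were higher too, among them PGLCT, the plastid glucose exporter (4.79-fold), the phosphatase LSF2 (4.95-fold), GWD2 (2.29-fold), UGP3 (2.28-fold) and ISA2 (2.13-fold).

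Invertases split sucrose into hexoses. Of the 7 loci listed as acid invertases outside the rule, CWINV5 alone was higher in stage E (8.65 RPM) than in stage A (0.673 RPM). Of all genes, 18.6% were higher there. In stage E against stage D, 4 of the 7 were lower, 3 of them by the whole counting interval, against 6.65% of all genes. Among the 7, CWINV6 is described as a fructan exohydrolase. The 8 acid invertases, the fructofuranosidase included, summed to 163, 248, 299, 430.3 and 207 RPM over stages A to E. CWINV2 (74.6 RPM in stage D, at most 22.9 elsewhere) and CWINV4, both cell wall forms, peaked in stage D and were lower in stage E by 3.69-fold and 4.37-fold. The 9 neutral invertases summed to between 271 and 436 RPM, with 0 called in stage E against stage A (32.3% of all genes). The 7 fructokinases summed to 508 RPM in stage E, against 505 RPM in stage A.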

How the data were processed

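The table was deposited with 1 value per gene and stage. Per the file headers the values are RPKM, but the deposited values are RPM (reads scaled to library size): a single step per stage, common to all genes, turned 100.0% of them into whole reads (tolerance 0.001 reads), and so gave the reads of each library. The values were therefore handled as RPM, and calls on the recovered reads are an alternative. The sources used here do not give the aligner, the assembly or what was done with reads matching several genes. Genes were named by hand from the paired Arabidopsis loci, and all 111 pathway loci listed were measured. Members and lists were chosen with earlier results of these data known. The clock genes were added later, with the values known.

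With 1 sample per stage no test was made. A call needed a difference of 1 in log2(RPM + 1) and 5 RPM in the higher stage; folds are ratios of RPM without the pseudocount of 1. Intervals are exact (Clopper-Pearson for ratios, Poisson for sums), from Python 3.11.15 and scipy 1.17.1. The calls and intervals were run on simulated Poisson counts. The intervals assume the same model, so this checked the code and not the spread between libraries or the effect of PCR copies. Every gene that reached 20 RPM among the 43 was named, and beyond them the called genes with the largest differences. Alternatives were pseudocounts of 0.1 and 5, minimums of 0 and 20 RPM, a 4-fold rule, median-of-ratios scaling over 17206 genes, a call on the whole counting interval, and other member sets.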

Additional observations from a re-analysis of the deposited data

How the results depend on the processing

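Of 117 recomputed counts, 93 stayed within 1.5 times the reported value, and none of the 87 single differences called among the starch and sucrose genes changed sign under another pseudocount or scaling. Median-of-ratios scaling kept 75 of the 87 calls, a pseudocount of 0.1 kept 87 and a pseudocount of 5 kept 77.

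The 4-fold rule kept fewer genes by construction: 0 higher and 0 lower in stage B against stage A, 0 lower in stage C against stage B, 3 higher and 4 lower in stage D against stage C, 5 and 3 in stage E against stage D, 4 and 3 in stage D against stage B, and 4 and 1 in stage E against stage A. In stage B against stage A, a pseudocount of 5 left 0 higher, a minimum of 20 RPM left 0 higher and 0 lower, and scaling gave 2 lower. In stage C against stage B, 3 were lower after scaling and 5 by the whole counting interval. That call on recovered reads gave 10 higher and 5 lower in stage E against stage D, 10 and 4 in stage D against stage B, and 9 and 3 in stage E against stage A. With 18 further loci of the same enzyme classes, a choice made after seeing the data, 2 were higher in stage B against stage A, 15 higher in stage C against stage B and 11 lower in stage E against stage D. Leaving out chromosome 1 loci, also chosen after seeing the data, left 4 lower in stage D against stage C. After scaling, 3 genes peaked in stage A, 0 in stage B and 12 in stage D. The median log2 difference turned to 0.18 in stage C against stage B and to -0.14 in stage E against stage D after scaling, where the median of all genes moved to 0.02 and 0.00, and to -0.10 in stage D against stage B over genes that averaged 20 RPM. The causes were not tested beyond what each setting does. With 1 library per stage, no replicate could be left out. No paired analysis was possible because each stage has 1 sample. Stage A has the fewest reads, so low values there are the least certain.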
